A study of Drosophila melanogaster with 21 samples.

Results

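The aminoacyl-tRNA synthetase genes of the fly were followed in RNA sequencing of adult Drosophila melanogaster heads, taken from Crtc knockout and control flies that had been fasted or fed. A gene was a member when its FlyBase symbol opened with a three-letter amino acid code and closed with RS or RS-m, and 31 of the 17559 identifiers in the deposited tables met that rule. By symbol alone, 17 members were taken as cytosolic (RS) and 14 as mitochondrial (RS-m). For 11 amino acids both kinds were present, 6 cytosolic members had no mitochondrial partner in the set, and GluRS-m, LeuRS-m and ProRS-m had no cytosolic one. The symbols LeuRS and PheRS-m also meet the rule but were not matched to an identifier of the tables and are not analysed here. The subunits alpha-PheRS and beta-PheRS, whose symbols fall outside the rule, were read with a list of relatives.

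A synthetase joins an amino acid to its matching tRNAs, which the ribosome then reads, so that translation in the cytosol and in the mitochondrion depends on these enzymes. The catalytic domains fall into class I and class II, which are unrelated in fold, and in animal cells several cytosolic synthetases are bound together with the scaffold proteins AIMP1, AIMP2 and AIMP3 in a multi-synthetase complex. In mammals many cytosolic synthetase genes are targets of ATF4, a transcription factor of the amino acid response whose fly counterpart is encoded by crc. Crtc, a coactivator that works with the transcription factor CREB, is tied by the series title to insulin signalling, to the metabolism of one-carbon units and to resistance to starvation.

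Fasted knockout heads and fasted control heads gave 2 libraries each, and fed knockout heads and fed control heads gave 3 each. Control flies are labelled w1118, a stock with a mutation in white, which serves in eye pigmentation. Knockout flies are labelled as a Crtc knockout. All flies were 3 to 5 days old, fasting lasted 16 hours, and fed flies stayed on standard medium. The labels give neither sex nor the number of flies per library. Whether the replicates are separate collections of flies is not stated there, so the spread behind each p-value may be a technical one. The third fed library of each genotype is listed with another set of samples, and that set has no fasted library. Heads are bulk tissue, in which fewer cells of a type and less RNA per cell cannot be told apart.

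No value per library was used, because the deposited tables of the authors' DESeq2 run give 1 base mean (normalised read count averaged over all libraries of a comparison) and 1 log2 fold with its standard error per gene. The folds are shrunken towards 0, most for genes with few reads. Each fold below is a log2 fold ± standard error, of knockout over control or of fasted over fed. A gene counts as called below an adjusted p of 0.05. In each of the 4 tables, all 31 members reached a base mean of 10 and had an adjusted p.

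The targeted gene Crtc had log2 folds of -4.88 ± 0.32 in fasted and -4.48 ± 0.26 in fed heads, knockout over control, in the authors' deposited tables, with DESeq2 adjusted p of 5.32e-50 and 1.11e-63. Its base mean in the authors' deposited tables was 0.36 over the knockout libraries and 340 over the control libraries. The authors' deposited tables also give lower mRNA of the white gene (w) in knockout heads, with log2 folds of -2.31 ± 0.34 when fasted and -2.42 ± 0.27 when fed. Its base mean was 4.94 over the knockout and 80.1 over the control libraries in the authors' deposited fasting tables, so the flies labelled as a white mutant had the higher level of its mRNA. Each genotype was 1 stock, so an effect of Crtc and another difference between the stocks cannot be told apart. Of 13 photoreceptor and 10 neuron marker genes that were matched, all reached a base mean of 10 in all 4 tables.

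Levels were compared between genes per length, as base mean per kb of exon. In the authors' deposited table of knockout heads the members spanned 6.43 for GluRS-m to 117 for TyrRS, and in that of control heads 10.4 for GluRS-m to 301 for LysRS. Cytosolic members had a median of 52.3 base mean per kb in the authors' deposited table of knockout heads and 74.5 in that of control heads, while mitochondrial members had a median of 21.0 in that of knockout heads and 24.2 in that of control heads. Among the 11 amino acids with both enzymes, the cytosolic gene had the higher level per kb in 10 pairs in either of the authors' deposited fasting tables, by a median of 3.40-fold in knockout and 3.14-fold in control heads. The aspartate pair was the exception. AspRS had 17.7 base mean per kb in knockout and 28.6 in control heads in the authors' deposited tables, below AspRS-m with 47.9 in knockout and 59.3 in control heads. Annotated exons of AspRS overlap those of an antisense RNA (CR45141) over 1448 bases and those of Nmda1, also on the opposite strand, over 127 bases. They further overlap CR43468, on the same strand as AspRS, over 154 bases. The sources used here do not give whether reads were counted by strand, so reads of AspRS and of these genes cannot be told apart.

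LysRS, which charges the lysine tRNAs, held a different place in the order of levels in the tables of the 2 genotypes. In the authors' deposited table of knockout heads it had 86.6 base mean per kb and stood 3rd of 31, below TyrRS (117) and ThrRS (104). In the authors' deposited table of control heads it had 301 base mean per kb and stood 1st, above ThrRS (166) and TyrRS (155). IleRS, the isoleucine enzyme, had 49.7 base mean per kb (10th) in knockout and 101 (5th) in control heads in the authors' deposited tables. MetRS, the methionine enzyme, had 31.9 (17th) in knockout and 62.5 (12th) in control heads in the authors' deposited tables. The tables were normalised separately and give no spread for a base mean, so these levels and ranks carry no test.

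**Figure D1:**
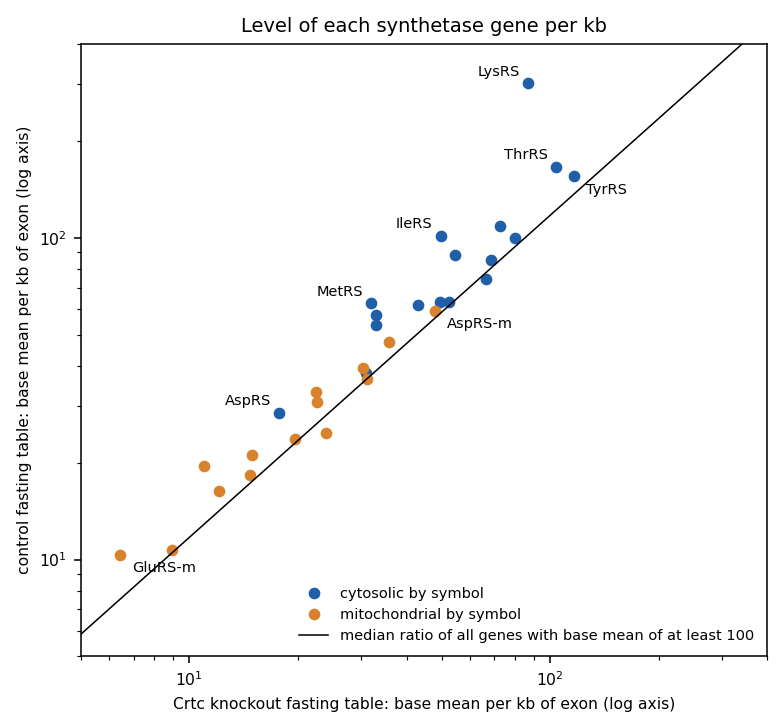
Base mean per kb of exon of each of the 31 synthetase genes in the authors' deposited fasting tables, Crtc knockout on the x axis and control on the y axis (both log axes), with cytosolic members in blue and mitochondrial ones in orange. The line marks the median ratio of 4804 genes that reach a base mean of 100 in both; LysRS, at 86.6 in knockout and 301 in control heads, lies farthest above it.

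The comparison of knockout with control heads asks how loss of Crtc bears on gene expression in each feeding state. Knockout heads had less LysRS mRNA in both states, less IleRS mRNA when fasted and less MetRS mRNA when fed, and no member was called higher, beside 3.43% of genes in fasted and 2.27% in fed heads in the authors' deposited tables. In fasted heads 2 of 31 members were called lower in the authors' deposited table (LysRS and IleRS), beside 1.97% of all genes with an adjusted p. In fed heads 2 of 31 were called lower (LysRS and MetRS), beside 2.49% of genes in the authors' deposited table. All 3 genes called in either state are cytosolic by symbol, which does not exclude that a gene also supplies the mitochondrion, and LysRS has no RS-m partner in the set.

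LysRS (FBgn0027084) lies on the minus strand of chromosome X, at bases 9606363 to 9608884 of the BDGP6.54 assembly in the Ensembl annotation, and is protein-coding. Its log2 fold of knockout over control was -1.57 ± 0.21 in fasted heads (DESeq2 adjusted p = 8.44e-12) in the authors' deposited table. In fed heads its log2 fold was -1.24 ± 0.20 (DESeq2 adjusted p = 8.01e-08) in the authors' deposited table. In the order of the authors' Wald scores, 27 genes had a lower score than LysRS in the fasted and 62 in the fed genotype table. The base mean of LysRS was 196 over the 5 knockout libraries and 683 over the 5 control libraries in the authors' deposited fasting tables. Relative to the median ratio of all genes, that is 0.337-fold, a ratio made from the same libraries as both genotype tables and no separate evidence. The base means, the folds and the library numbers of the authors' deposited fasting tables together imply LysRS levels of 192 in fasted knockout, 199 in fed knockout, 734 in fasted control and 649 in fed control heads. Both knockout states therefore lay below both control states in these implied levels. The implied levels rest on shrunken folds, carry no error and are not corrected for the scale between the separately normalised fasting tables.

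IleRS (FBgn0027086) lies on the plus strand of chromosome 3L, at bases 22288665 to 22292810 of BDGP6.54. Its log2 fold of knockout over control was -0.71 ± 0.23 in fasted heads (DESeq2 adjusted p = 0.0429) in the authors' deposited table. In fed heads it was -0.64 ± 0.22 and missed the threshold (DESeq2 adjusted p = 0.0802) in the authors' deposited table. The call in fasted heads was lost when the deposited p-values were adjusted over all genes with a p (Benjamini-Hochberg adjusted p = 0.057 from the authors' DESeq2 p), or at a threshold of 0.01. MetRS (FBgn0034401) lies on the minus strand of chromosome 2R, at bases 18846858 to 18850599 of BDGP6.54. Its log2 fold was -0.60 ± 0.24 in fasted heads, where of all uncalled members it stood nearest the threshold (DESeq2 adjusted p = 0.165), in the authors' deposited table. In fed heads it was -0.69 ± 0.18 (DESeq2 adjusted p = 0.00586) in the authors' deposited table. For each of these genes, the folds in fasted and fed heads differed by less than 1 standard error, on different sides of the threshold. Relative to the median of all genes, the base mean over knockout libraries was 0.577-fold for IleRS and 0.599-fold for MetRS in the authors' deposited fasting tables. No annotated exon of another gene overlaps LysRS, IleRS or MetRS.

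**Figure D2:**
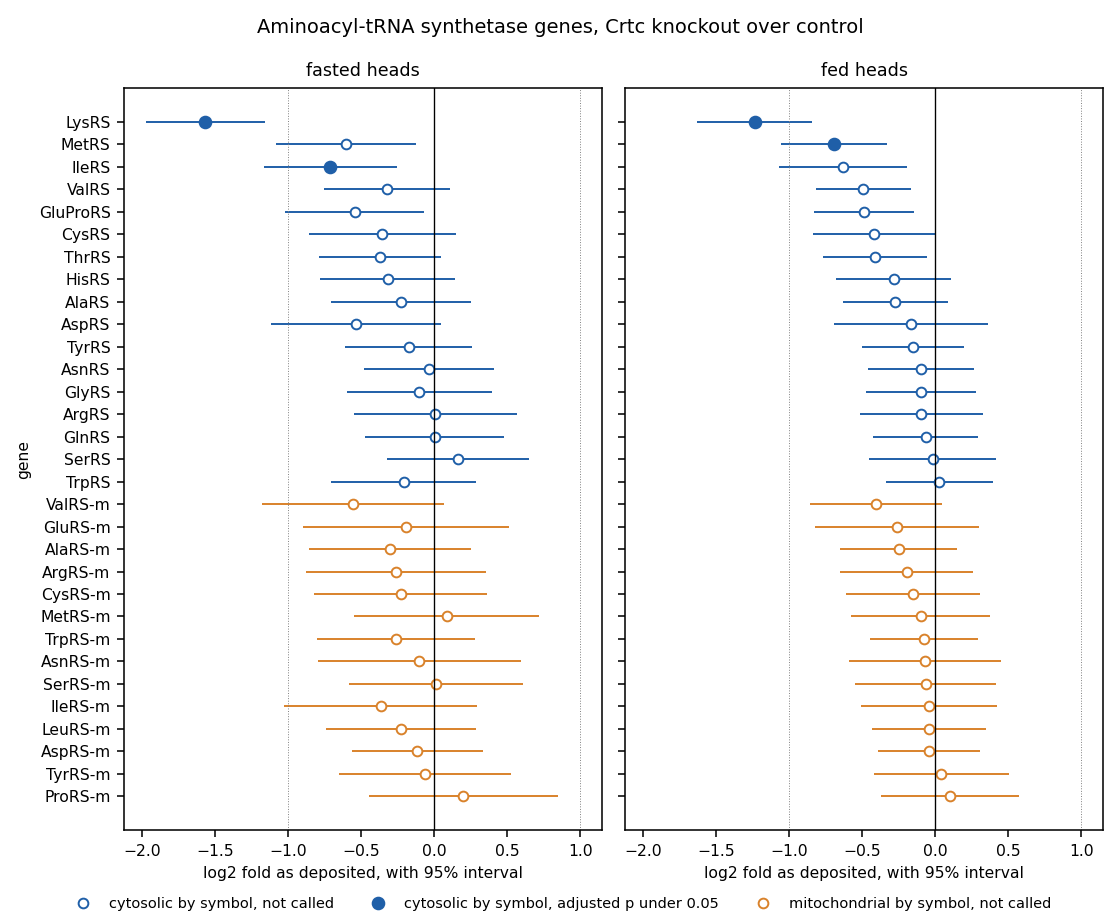
Log2 fold of Crtc knockout over control with its 95% interval for each of the 31 synthetase genes, in fasted heads (left) and fed heads (right), from the authors' deposited tables, with filled points for an adjusted p under 0.05. LysRS lies apart at -1.57 in fasted and -1.24 in fed heads, and 25 members in fasted and 28 in fed heads lie below 0.

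The other 28 members were called in neither state. At an unadjusted p under 0.05, 4 of all 31 members were lower in fasted heads, beside 4.75% of genes that reached a base mean of 10, and 7 in fed heads, beside 6.15%, all from the authors' deposited tables. These counts include LysRS, IleRS and MetRS in both states. GluProRS, a fused enzyme for glutamate and proline, was also counted in both states. Its exons overlap an antisense RNA (CR46092) over 905 bases. Its fold was -0.55 ± 0.24 when fasted and -0.49 ± 0.18 when fed (DESeq2 adjusted p = 0.258 and, in fed heads, 0.0931) in the authors' deposited tables. ValRS, the valine enzyme, was the uncalled member nearest the threshold in fed heads, at -0.49 ± 0.17 (DESeq2 adjusted p = 0.0566) in the authors' deposited table. ThrRS and CysRS, for threonine and cysteine, had -0.41 ± 0.18 and -0.42 ± 0.21 in fed heads (DESeq2 adjusted p = 0.261 and 0.421) in the authors' deposited table. No mitochondrial member passed even the unadjusted threshold in either state. The highest fold belonged to ProRS-m, at 0.20 ± 0.33 in fasted and 0.10 ± 0.24 in fed heads in the authors' deposited tables, both within 1 standard error of 0.

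Most members had folds slightly below 0. The median log2 fold of the 31 members was -0.23 in fasted heads, beside -0.02 for all genes that reached a base mean of 10, and -0.15 in fed heads, beside -0.00, in the authors' deposited tables. Below 0 lay 25 of 31 members in fasted heads, beside 53.1% of all genes, and 28 of 31 in fed heads, beside 50.2%, in the authors' deposited tables. Re-centred on the median of genes reaching a base mean of 100, the members' medians were -0.21 in fasted and -0.15 in fed heads, from the authors' deposited tables. Without LysRS the members' medians were -0.23 in fasted and -0.13 in fed heads in the authors' deposited tables. The fasted and the fed table share no library, and 23 of 31 members (74.2%) were below 0 in both, beside 35.4% of 8557 genes. Called lower in both were 1 member, LysRS, and 119 of those genes in the authors' deposited tables. These counts describe genes measured in the same libraries and were given no list test.

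Cytosolic members had a median log2 fold of -0.32 in fasted and -0.27 in fed heads, and mitochondrial members -0.21 in fasted and -0.08 in fed heads, in the authors' deposited tables. Of the cytosolic members, 7 are homologs of synthetases in the mammalian multi-synthetase complex: GluProRS, IleRS, MetRS, GlnRS, LysRS, ArgRS and AspRS. LeuRS, a further such homolog, was not matched to an identifier of the tables. All 3 called genes are among these 7, whose median was -0.55 in fasted and -0.49 in fed heads in the authors' deposited tables, beside -0.22 in fasted and -0.21 in fed heads for the other 10 cytosolic members. The 7 hold every called gene and the other 10 hold none, so this contrast partly restates the calls. Among the uncalled homologs, GluProRS was at -0.55 in fasted and -0.49 in fed heads, and AspRS at -0.54 in fasted and -0.17 in fed heads, in the authors' deposited tables. Not all 7 lay this low. GlnRS, for glutamine, was at 0.00 ± 0.24 in fasted and -0.07 ± 0.18 in fed heads in the authors' deposited tables. ArgRS, for arginine, was at 0.01 ± 0.29 in fasted and -0.10 ± 0.21 in fed heads in the authors' deposited tables. None of the 3 scaffold genes was called. AIMP1 was at -0.26 ± 0.30 in fasted and 0.21 ± 0.24 in fed heads, and AIMP2 at 0.01 ± 0.25 in fasted and 0.07 ± 0.20 in fed heads, in the authors' deposited tables. AIMP3 was at -0.05 ± 0.27 in fasted and -0.04 ± 0.21 in fed heads in the authors' deposited tables. Cytosolic class I enzymes had medians of -0.26 in fasted and -0.29 in fed heads, and cytosolic class II enzymes -0.27 in fasted and -0.22 in fed heads, in the authors' deposited tables.

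Among relatives outside the rule, 11 of 12 listed genes reached a base mean of 10, and none was called in any of the 4 comparisons of the authors' DESeq2 run, nor did any pass an unadjusted p under 0.05. They include both subunits of the cytosolic phenylalanine enzyme, whose folds of knockout over control in the authors' deposited tables were 0.08 ± 0.26 for alpha-PheRS and 0.07 ± 0.28 for beta-PheRS in fasted heads. In fed heads these folds were -0.15 ± 0.22 for alpha-PheRS and -0.05 ± 0.22 for beta-PheRS in the authors' deposited tables. GatC, for a subunit of a mitochondrial enzyme that completes glutaminyl-tRNA, was listed at 0 in every table.

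Among genes within 40 kb on the X chromosome, LysRS was the one called gene. Hecw, which starts 61 bases away on the opposite strand and is read in the opposite direction, was at -0.18 ± 0.24 in fasted and -0.18 ± 0.20 in fed heads in the authors' deposited tables. Lst8, for a subunit of TOR complexes, lies 393 bases from the other end of LysRS and was at 0.05 ± 0.30 in fasted and 0.11 ± 0.23 in fed heads in the authors' deposited tables. Within 40 kb, 0 of 7 neighbours that reached a base mean of 10 were called by the authors' DESeq2 run in either state, 0 passed an unadjusted p under 0.05, and their folds spanned -0.19 to 0.11 in fasted and -0.18 to 0.21 in fed heads in the authors' deposited tables. Around IleRS 0 of 7 such neighbours were called in either state by the authors' DESeq2 run, and 0 passed an unadjusted p under 0.05. Around MetRS 3 of 15 were called in fasted heads, all of them higher (Jheh1, Jheh2 and Jheh3, which encode juvenile hormone epoxide hydrolases), and 2 in fed heads, CG15096 lower and Jheh3 higher, in the authors' deposited tables. At an unadjusted p under 0.05 these counts were 3 in fasted and 4 in fed heads, where Phb2 (-0.35 ± 0.18) and CG15083 (0.52 ± 0.21) were added, in the authors' deposited tables.

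**Figure D3:**
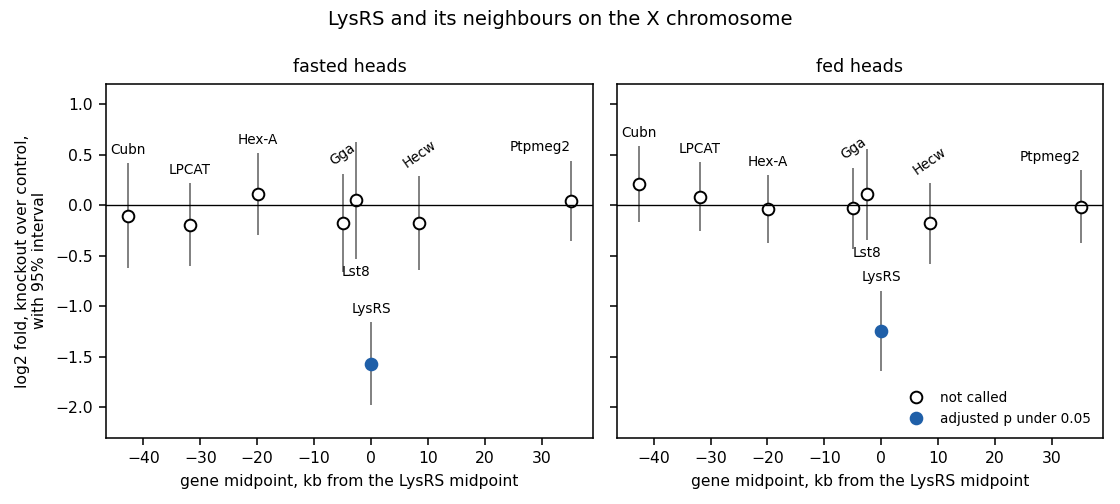
Log2 fold of Crtc knockout over control with its 95% interval for LysRS and the 7 genes within 40 kb that reached a base mean of 10, against the distance of each gene's midpoint from that of LysRS in kb, in fasted heads (left) and fed heads (right), from the authors' deposited tables. LysRS is the filled point at -1.57 in fasted and -1.24 in fed heads, and the 7 neighbours lie between -0.19 and 0.21.

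Other parts of the translation machinery were read beside the members. Of 24 cytosolic translation factor genes 0 were called in either state, 1 in each state was lower at an unadjusted p under 0.05, and their medians were -0.10 in fasted and -0.07 in fed heads in the authors' deposited tables. Below 0 in both states lay 17 of those 24 genes, and 45 of 70 mitochondrial ribosomal protein genes, beside the 23 of 31 synthetase genes, in the authors' deposited tables. State by state, 21 of the 24 factors lay below 0 in fasted and 18 in fed heads, beside 25 and 28 of the 31 members. Of 10 tRNA modification and processing genes 0 were called, and 9 in fasted and 8 in fed heads lay below 0. For 10 mitochondrial translation factors these counts were 8 and 9, and for 11 relatives outside the rule 6 and 7. Of 11 relatives outside the rule, 3 lay below 0 in both states, beside 35.4% of all genes. The relatives' medians were -0.02 in fasted and -0.05 in fed heads in the authors' deposited tables. Mitochondrial ribosomal protein genes had medians of -0.16 in fasted and -0.12 in fed heads, and cytosolic ribosomal protein genes -0.04 in both states, in the authors' deposited tables. The authors' DESeq2 run called 0 of either list, while at an unadjusted p under 0.05 the mitochondrial list had 3 lower genes in fasted and 4 in fed heads and the cytosolic list 0 in both. Of 10 mitochondrial translation factor genes 0 were called, with medians of -0.24 in fasted and -0.12 in fed heads, and 0 and 1 at an unadjusted p under 0.05 in fasted and in fed heads, in the authors' deposited tables.

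Markers of other cell types differed between the genotypes in the same tables. Of 14 muscle marker genes 10 were called higher and 1 lower in fasted heads, and 2 higher and 1 lower in fed heads, with medians of 0.69 in fasted and 0.16 in fed heads in the authors' deposited tables. Of 6 fat body marker genes that reached a base mean of 10, 4 were called higher in fasted and 2 in fed heads, with medians of 1.29 in fasted and 0.42 in fed heads in the authors' deposited tables. Fbp2, a further fat body marker, had a base mean under 1 in all 4 of the authors' deposited tables. Of 13 photoreceptor marker genes 4 were called higher and 1 lower in fasted heads and 5 higher in fed heads, and of 9 glial ones 1 was called higher in fasted and 2 lower in fed heads, in the authors' deposited tables. Of 10 neuron marker genes 0 were called by the authors' DESeq2 run, with 1 at an unadjusted p under 0.05 in each state. Summed over a list, the base mean over a genotype's libraries was 19088 in knockout and 17420 in control heads for muscle, and 12344 in knockout and 11284 in control heads for fat body, in the authors' deposited fasting tables. It was 25594 in knockout and 30063 in control heads for neurons, 7948 in knockout and 9731 in control heads for glia, and 331226 in knockout and 274307 in control heads for photoreceptors, in the authors' deposited fasting tables. These sums come from tables that were normalised separately, and they are not corrected for the scale between those tables. Over the 4804 genes used for the median ratio, the median log2 ratio of knockout over control base mean was -0.23. Against that median the neuron sum in knockout heads lies near other genes and the glia sum a little below them, with no test. The higher sums of the other lists stand higher still against that median. The part of cell composition in the synthetase folds was not tested.

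The fasting comparisons ask how each genotype responds to 16 hours without food. No synthetase gene passed the test for fasting in either genotype. Called were 0 of 31 members in knockout heads, beside 3.26% of genes, and 0 of 31 in control heads, beside 3.84%, by the authors' DESeq2 run. At an unadjusted p under 0.05 these counts were 1 of 31 in knockout heads, beside 9.87% of genes, and 0 of 31 in control heads, beside 9.38%, in the authors' deposited tables. The members' median log2 fold was -0.03 in knockout and -0.02 in control heads, beside -0.02 in knockout and -0.01 in control heads for all genes, in the authors' deposited tables. The 95% interval lay within 2-fold in either direction for 30 of 31 members in knockout and 31 of 31 in control heads, with the shrunken folds of the authors' deposited tables, beside 7841 of 8590 genes in knockout and 8248 of 8757 in control heads. With this shrinkage no gene had a standard error above 0.315 in knockout or 0.285 in control heads. A gene with few reads and a fold near 0 therefore enters this count whatever its change, so the count is no evidence that a response is absent.

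The gene with the lowest fold in knockout heads, and the one at an unadjusted p under 0.05, was IleRS-m, for the mitochondrial isoleucine enzyme. Its fasting fold was -0.67 ± 0.28 in knockout heads (DESeq2 adjusted p = 0.311) and -0.33 ± 0.25 in control heads (DESeq2 adjusted p = 0.998) in the authors' deposited tables. The highest fold in control heads, and the one nearest the threshold there, was that of AspRS, with 0.19 ± 0.28 in knockout and 0.48 ± 0.26 in control heads (DESeq2 adjusted p = 0.656 in control heads), both from the authors' deposited tables. SerRS, the serine enzyme, had the highest fold in knockout heads, at 0.25 ± 0.24 there and 0.07 ± 0.22 in control heads in the authors' deposited tables. AsnRS-m, for mitochondrial asparagine, had the lowest fold in control heads, at -0.38 ± 0.31 in knockout and -0.35 ± 0.27 in control heads in the authors' deposited tables. LysRS had fasting folds of -0.06 ± 0.22 in knockout and 0.18 ± 0.19 in control heads in the authors' deposited tables, neither of them called.

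**Figure D4:**
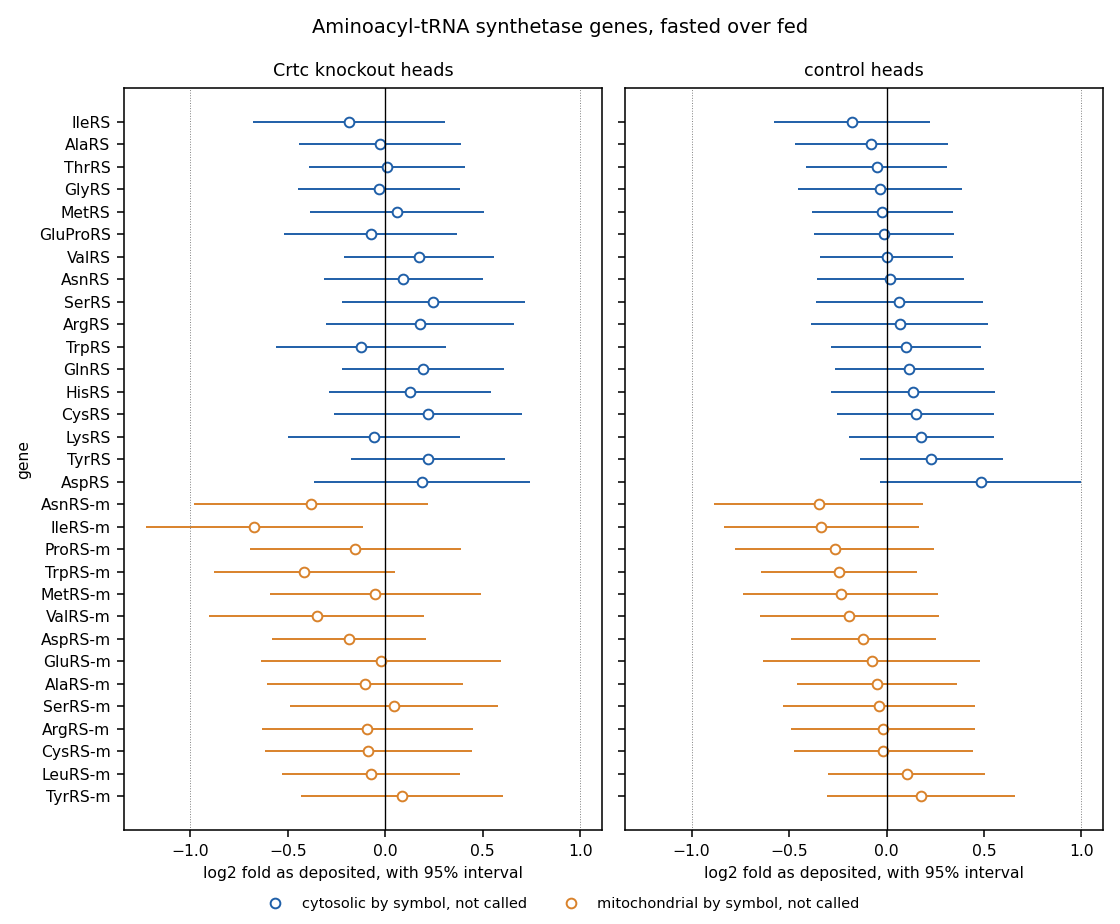
Log2 fold of fasted over fed with its 95% interval for each of the 31 synthetase genes, in Crtc knockout heads (left) and control heads (right), from the authors' deposited tables. No point is filled, since none had an adjusted p under 0.05; folds span -0.67 to 0.25 in knockout and -0.35 to 0.48 in control heads.

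The medians of cytosolic and mitochondrial members lay on opposite sides of 0 by small amounts, a difference that was not tested. The cytosolic median was 0.09 in knockout and 0.07 in control heads, with 11 of 17 members above 0 in each, and the mitochondrial median was -0.10 in both genotypes, with 12 of 14 members below 0 in each, in the authors' deposited tables. The other 6 cytosolic members lay below 0 and the other 2 mitochondrial members above it, and of all genes 53.3% in knockout and 52.3% in control heads lay below 0, in the authors' deposited tables. For the 11 amino acids with both enzymes, the cytosolic gene had the higher fasting fold in 11 pairs in knockout heads and 10 in control heads in the authors' deposited tables, which share no library. Genes of the cytosolic ribosomal proteins had medians of 0.30 in both genotypes, and those of the mitochondrial ribosomal proteins -0.05 in knockout and -0.01 in control heads, in the authors' deposited tables, again with 0 called by the authors' DESeq2 run. At an unadjusted p under 0.05 the cytosolic list had 2 higher genes in knockout and 7 in control heads, and the mitochondrial list 0 in both, in the authors' deposited tables. At the medians' size, single members could not be told from 0 at this precision, since the median standard error of a member was 0.24 in knockout and 0.21 in control heads in the authors' deposited tables. Of the muscle markers 0 of 14 were called in knockout heads and 5 of 13 were lower on fasting in control heads, and of the fat body markers 2 of 6 were lower in knockout and 4 of 7 in control heads, in the authors' deposited tables. Of 9 glial markers 2 were called higher on fasting in knockout heads (Gs2 and alrm) and 1 lower in control heads (wrapper), with medians of 0.04 in knockout and -0.35 in control heads, in the authors' deposited tables. Of 10 neuron and 13 photoreceptor markers 0 were called by the authors' DESeq2 run in either genotype, and at an unadjusted p under 0.05 there was 1, a photoreceptor marker that was lower in knockout heads. Neuron markers had medians of -0.33 in knockout and -0.21 in control heads, and photoreceptor markers -0.05 in knockout and 0.22 in control heads, in the authors' deposited tables. The part of these markers' cell types in the synthetase values was not tested.

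The difference of the fasting response between genotypes was tested per gene as the knockout fold minus the control fold. None of the 31 members passed (0 at an adjusted p under 0.05, beside 0.802% of 8474 genes, and 0 at an unadjusted p under 0.05, beside 4.12%; normal test on the folds and standard errors of the authors' deposited tables, Benjamini-Hochberg). Differences spanned -0.34 ± 0.38 for IleRS-m, which also had the lowest unadjusted p of the members (0.378), to 0.19 ± 0.38 for MetRS-m. For LysRS the difference was -0.23 ± 0.29 (unadjusted p = 0.425). The 95% interval of the difference, made with shrunken folds, lay within 2-fold in either direction for 29 of 31 members, beside 6843 of 8474 genes. The ceiling on the standard errors bears on this count too, which includes GluRS-m at 0.05 ± 0.42 despite its few reads. The count is therefore no evidence that the responses are equal. With the prior taken out, which is approximate, the members' differences spanned a wider range, -0.48 to 0.26.

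Genes of the amino acid response, read beside the synthetases, did include some that passed the test for fasting. Of 18 listed genes of the ATF4 arm and amino acid response, 8 rose on fasting in knockout heads and 8 in control heads, and 0 fell, in the authors' deposited tables. The same 8 genes rose in both genotypes: trbl, Thor, Sesn, aay, CG11899, CG6287, Shmt and Nmdmc. The other 10 were called in neither: crc, Gcn2, PEK, Xrp1, scyl, chrb, cnc, Atf3, PPP1R15 and eIF2alpha. Gcn1 and AsnS were also meant for the list but were not matched by symbol. Among all genes 2.76% rose and 0.498% fell in knockout heads, and 2.19% rose and 1.65% fell in control heads, in the authors' deposited tables. Nmdmc, for a mitochondrial enzyme of the folate cycle, rose by 2.41 ± 0.23 in knockout and 1.98 ± 0.16 in control heads in the authors' deposited tables (DESeq2 adjusted p = 1.56e-22 and 8.2e-33). Thor, the fly 4E-BP that restrains cap-dependent translation, rose by 2.30 ± 0.17 in knockout and 1.38 ± 0.17 in control heads in the authors' deposited tables (DESeq2 adjusted p = 7.04e-40 and 1.41e-13). The serine synthesis gene aay, for a phosphoserine phosphatase, rose by 2.33 ± 0.16 in knockout and 1.78 ± 0.15 in control heads in the authors' deposited tables (DESeq2 adjusted p = 3.75e-42 and 1.66e-30). The mRNA of crc itself was at -0.11 ± 0.18 in knockout and -0.08 ± 0.16 in control heads, and that of Gcn2, the kinase that senses uncharged tRNA, at 0.03 ± 0.24 in knockout and 0.22 ± 0.20 in control heads, in the authors' deposited tables, none of them called. By the test of the difference of fasting responses 1 of the 18, Thor, was called (adjusted p = 0.0176, Benjamini-Hochberg over 8474 genes, with a difference of 0.92 on the log2 scale), a call lost with a t distribution of 6 degrees of freedom. The list was chosen with earlier results of these data known, and its counts are a description.

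In the comparison of knockout with control heads, 2 of the 18 genes were lower in fasted heads in the authors' deposited table (Shmt at -0.81 ± 0.22 and Nmdmc at -0.95 ± 0.22). In fed heads 2 of the 18 were lower in the authors' deposited table, Thor at -0.67 ± 0.16 and Nmdmc at -1.56 ± 0.18. The fasted and fed genotype tables share libraries with the fasting tables, so these values are set side by side only.

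**Figure D5:**
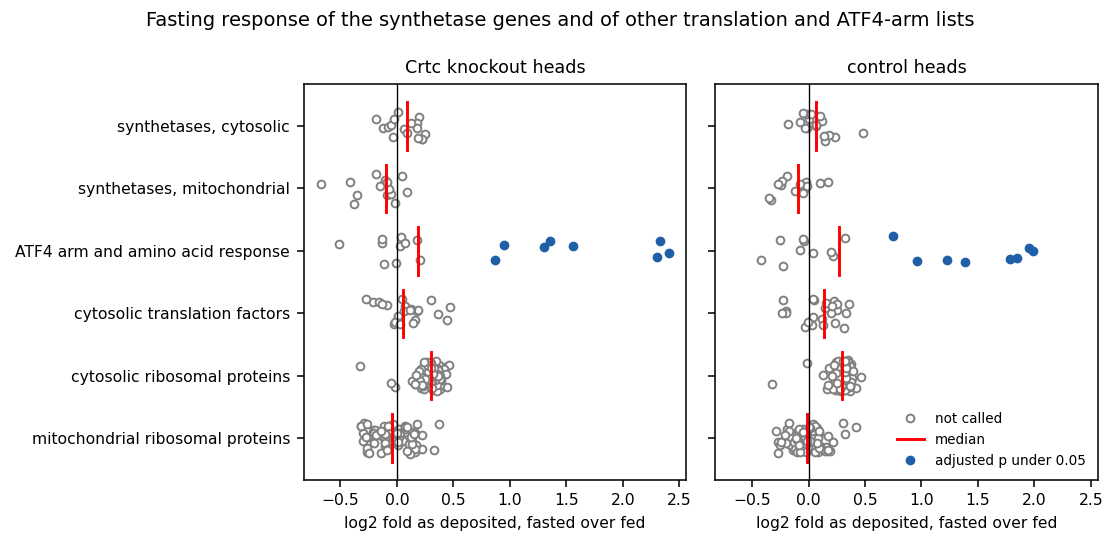
Log2 fold of fasted over fed for each gene of 6 lists, in Crtc knockout heads (left) and control heads (right), from the authors' deposited tables, with filled points for an adjusted p under 0.05 and a red line at each list's median. Points are spread vertically at random within a list; called genes are seen only in the ATF4 arm and amino acid response list, 8 in each genotype, and none among the 31 synthetase genes.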

How the data were processed

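Per the labels' protocols, polyadenylated head RNA was isolated and NEBNext Ultra libraries were prepared from it. Per the submitters' processing notes, the authors' tools included DESeq2, Cuffdiff, STAR and TopHat2, and the builds were dm6 and dm3. No versions or roles are stated, and the aligner and build used for the tables are therefore not given in the sources used here. The authors deposited 4 tables of DESeq2 comparisons. Per the file headers, each holds, per gene, a base mean (the mean signal of the comparison's libraries), a log2 fold with its standard error, a Wald score, a p-value and an adjusted p-value. Libraries were assigned to tables by the labels, whose numbers are not those in the tables' names. With the labelled library numbers, the base means of the 2 fasting tables and of the 2 genotype tables give the same total per gene within a median ratio of 0.9995 (4804 genes). Depth per library is unknown, and base means summed to 3572598 and 4087577 in the deposited tables of knockout and control fasting. The number of libraries limits the precision.

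Members and gene lists were chosen with earlier results of these data known. Members were found through an Ensembl name table that matched 17253 of 17559 identifiers, and exon lengths and positions come from Ensembl release 115 (BDGP6.54). Full statistics are given for members called in any table, and for the others the highest and lowest fold and the member nearest the threshold. Calls are the authors' own. Counts over genes took those that reached a base mean of 10. The difference of the fasting responses used a two-sided normal test on the folds as deposited, over genes that reached this level in both tables. It was also run on simulated folds with normal noise of the deposited standard errors. That simulation cannot show whether those standard errors hold with so few libraries. Implied levels were solved from a base mean, a fold and the library numbers. Python 3.11.15 with pandas 2.3.3, numpy 2.4.6 and scipy 1.17.1 was used. Bodies, CREB mutant heads and a Sik2 mutant head are not analysed here. Promoter and protein motifs were not searched.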

Additional observations from a re-analysis of the deposited data

How the results depend on the processing

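The count of members called lower in fasted knockout against fasted control heads, 2 as deposited, was 1 (LysRS) at an adjusted p threshold of 0.01, and 1 when the authors' deposited p-values were adjusted over all genes with a p; IleRS lost its call by these settings' own construction, and its fold stayed at -0.71. The 44 other values set against an alternative for the counts and medians kept their side of the threshold, or moved by less than the median standard error. That limit is the standard error of a single gene and exceeds the size of the median over all 31 members in every comparison. A median could thus change sign within it, so staying within it says little about how stable a median is. The median of the members' fasting folds changed sign with a base mean of at least 100, to 0.01 in knockout heads, against -0.03 over all 31, and to 0.00 in control heads, against -0.02, there also with re-centred folds. LysRS in both states and MetRS in fed heads kept their calls in every adjustment and threshold tried. With a t distribution of 6 degrees of freedom, the difference of the fasting responses gave 0 calls among all 8474 genes, against 68 with the normal test. Leaving out LysRS was chosen after seeing the data.

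No paired analysis was possible because the tables hold no value per library, and leaving out single libraries could not be run for the same reason. Neither could the additional set, which holds the third fed library of each genotype, be taken out. Folds with the prior removed are approximate: the member medians were then -0.30 in fasted and -0.17 in fed heads, knockout over control, in the authors' deposited tables.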
